A study of Mus musculus with 6 samples.

Results

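The long noncoding RNAs Malat1, Neat1, Meg3, Tug1 and Peg13, all known from the brain, are described here by where N6-methyladenosine (m6A) enrichment was listed along them. They were chosen by the peaks themselves: the rule took every peak that overlapped 5 fixed windows of the mouse genome, build mm9. The windows, counted from base 1, were chromosome 19 from 5795690 to 5802671 for Malat1, chromosome 19 from 5824708 to 5845480 for Neat1, chromosome 12 from 110779001 to 110810000 for Meg3, chromosome 11 from 3539001 to 3551500 for Tug1 and chromosome 15 from 72635001 to 72641000 for Peg13. The rule found 81 of the 42886 deposited peaks. Peaks that touched end to end were joined into enriched regions, which gave 33 of the 23446 regions in the whole list, and all 5 RNAs held at least 3 of them.

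Midbrain and striatum of C57BL/6 mice were dissected for RNA. The labels call the animals adult wild-type littermates and name no treatment, and both brain areas are given as 1 tissue. There were 3 MeRIP libraries, in which an antibody pulls down RNA fragments that carry m6A, and 3 input libraries of the same RNA without the pull-down. Ribosomal RNA had been removed from all 6. The deposited list gives only the position of each peak over all libraries, so no value has an error between replicates, sequencing depth is unknown, and RNA abundance and strength of enrichment cannot be told apart.

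m6A is a methyl mark that a nuclear enzyme complex with Mettl3 as its catalytic subunit places on adenosines while RNA is made. Malat1 is an abundant, mostly unspliced RNA of nuclear speckles. Neat1 is the RNA scaffold of paraspeckles and exists as a short and a long form that share their 5' end, and only the long form builds paraspeckles. Meg3 is a spliced, maternally expressed RNA of the imprinted Dlk1-Dio3 domain, Tug1 is a widely expressed RNA first described for its role in the retina, and Peg13 is a paternally expressed RNA made from within the gene Trappc9. RefSeq's gene table of build GRCm38 lists all 5 as long noncoding RNAs. Whether the tissue's defining markers were present was not checked, because the list holds no values by gene.

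Peg13 was covered the most and Neat1 the least. Peaks lay on 57.5% of the Peg13 window, 33.8% of the Tug1 window, 20.0% of the Malat1 window, 9.52% of the Meg3 window and 5.42% of the Neat1 window. The windows are stretches of genome, and the spliced RNAs have introns inside them, so these shares are not shares of a mature RNA. The order was different over the span from the first to the last peak: there Peg13 had 95.8% of bases covered, Neat1 51.1%, Tug1 38.9%, Malat1 36.5% and Meg3 11.4%. Neat1 moved from the last place to the second because its peaks were packed into 2200 bases of a window of 20773 bases. Without replicates it cannot be said which neighbours in either order differ.

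**Figure D1:**
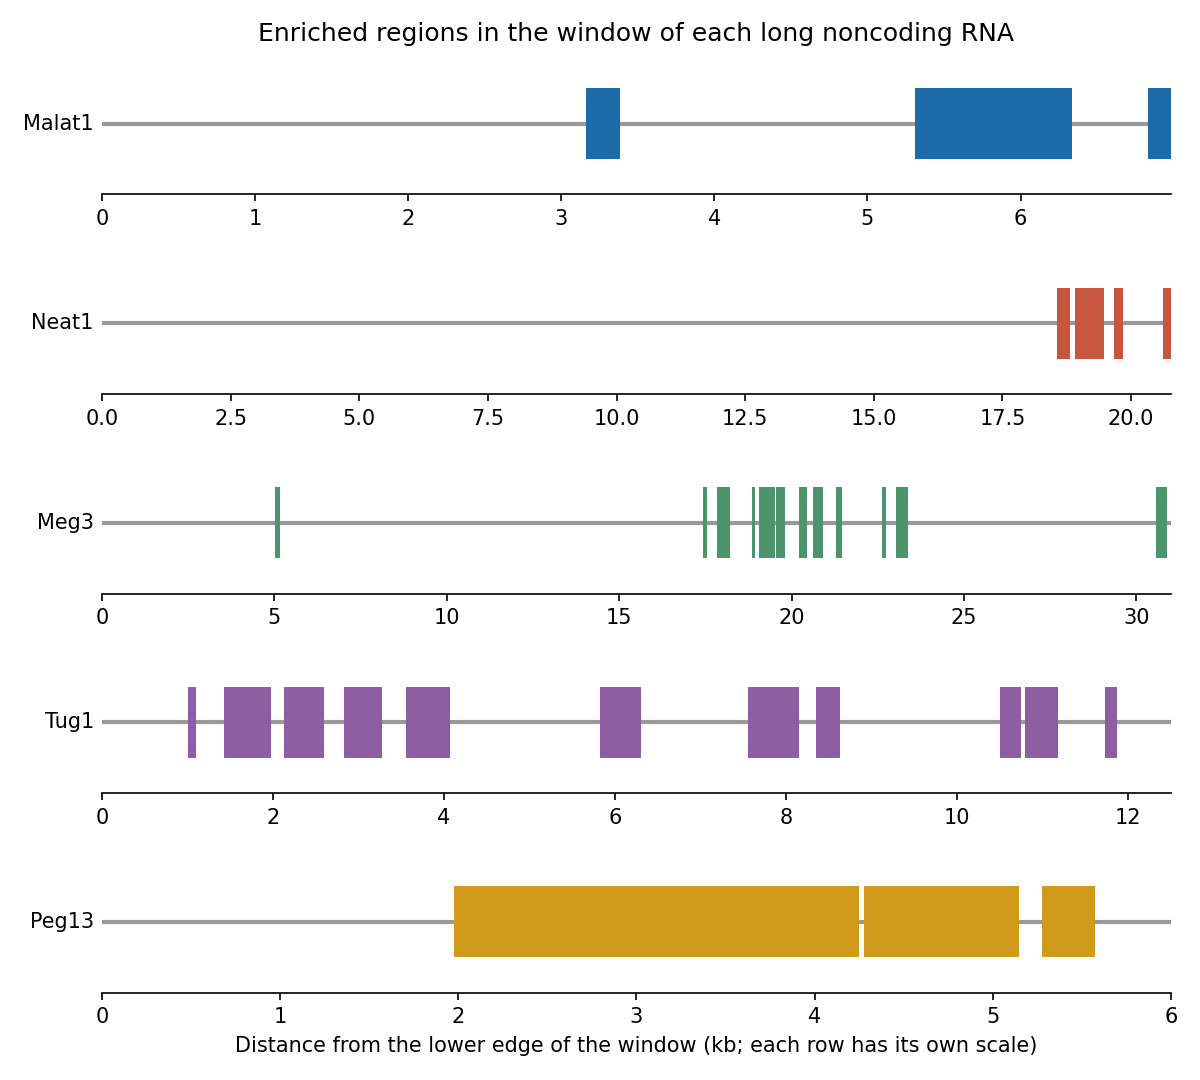
Position of every enriched region (blocks) along the 5 windows (grey lines), with the distance from the lower genome coordinate of each window in kb on the x axis, scaled separately for each RNA. The 4 Neat1 regions sit at the upper end, the 3 Peg13 regions nearly touch, and the 11 Tug1 regions are spread along the window.

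Malat1 carried 3 regions made of 9 peaks, and most of its covered bases lay toward the upper edge of the window. RefSeq's table of build GRCm38 gives Malat1 on the minus strand, so the upper edge is its 5' side; where its transcription starts in mm9 was not determined. The widest region ran from 5801001 to 5802025, had 1025 bases in 6 peaks and held 73.2% of the summed width of the Malat1 regions. It ended 646 bases before the upper edge. A narrow region of 150 bases, from 5802526 to 5802675, reached 4 bases past that edge. The third, of 225 bases, lay near the middle of the window, from 5798851 to 5799075.

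Cut into 4 equal parts, the Malat1 window had 67.1% of bases covered in the part next to the upper edge, 0% in the next, 12.9% in the one after that and 0% in the part at the lower edge. The longest stretch without a peak was 3161 bases, 45.3% of the window, and ran from the lower edge to 5798850. This stretch is on the 3' side of Malat1, whose 3' end is known for a triple helix that protects the RNA and for the small RNA mascRNA that is cut off it. A second stretch of 1925 bases separated the middle region from the wide one. No peak in these stretches says only that none was listed there.

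The sequence at the start of Malat1 is shown because a region reaches the window edge on its 5' side. It crosses that edge by 4 bases, less than the 25 bases of the grid on which regions start and end. The sequence of Meg3 is shown because no region lies within 5025 bases of the lower edge of its window. That edge is the 5' side of Meg3, which RefSeq gives on the plus strand. Both sequences are the first 50 transcribed bases in RefSeq's promoter table of build GRCm38, 5' to 3', matched by gene symbol. Their position relative to the mm9 peaks was not determined. The table holds 3 of the 5 RNAs (Tug1 is the third). Capitals mark the letters GGAC or GAAC or AGAC or AAAC, short forms of the sequence in which m6A is known to be placed.
Malat1: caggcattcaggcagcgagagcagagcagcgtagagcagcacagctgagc
Meg3: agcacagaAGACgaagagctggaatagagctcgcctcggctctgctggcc

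The 4 motifs cannot overlap one another. On the transcribed strand Malat1 had 0 matches and Meg3 had 1, and on the opposite strand both had 0. Of the first 50 bases of 27025 genes in the table, 51.0% held at least 1 match on the transcribed strand and 77.9% on either strand. A match is a description and not a methylated base, and 0 matches says only that these letters are not in these 50 bases.

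Neat1, the neighbour of Malat1 in the gene table, carried 4 regions made of 7 peaks, all at the upper end of its window. The tables used here give no strand for Neat1. As background, it is known to be transcribed in the same direction as Malat1, which makes the upper edge its 5' side, the side that the short and long forms share. The regions had 250, 550, 175 and 150 bases, from the lower to the upper coordinate. The widest ran from 5843626 to 5844175, and the last, from 5845326 to 5845475, ended 5 bases inside the upper edge. The other 18568 bases, 89.4% of the window, ran from the lower edge to 5843275 and held no peak. In the part of the window next to the upper edge 21.7% of bases were covered, and in each of the other 3 parts 0%.

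Malat1 and Neat1 thus both had a narrow region of 150 bases at the upper edge of their windows, a wider region inside it, and their longest stretch without a peak at the lower edge. Peg13 also had its longest stretch, 1975 bases, at the lower edge of its window. An uppermost region narrower than the next was also seen in Tug1 (150 and 375 bases), Peg13 (300 and 875) and Meg3 (325 and 350). In the list, 2309 of 23446 regions had a width of 150 bases. The wider region was the second counted from the lower coordinate in Malat1 and in Neat1, at 83.4% and 92.4% of their windows. Between their windows lay 22036 bases with 0 regions, so the listed enrichment of the 2 RNAs was separated by 40600 bases without a peak. The list has no heights, so it cannot show how the long Neat1 form compares with the short one in amount: how much of the long form these libraries held was not tested.

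**Figure D2:**
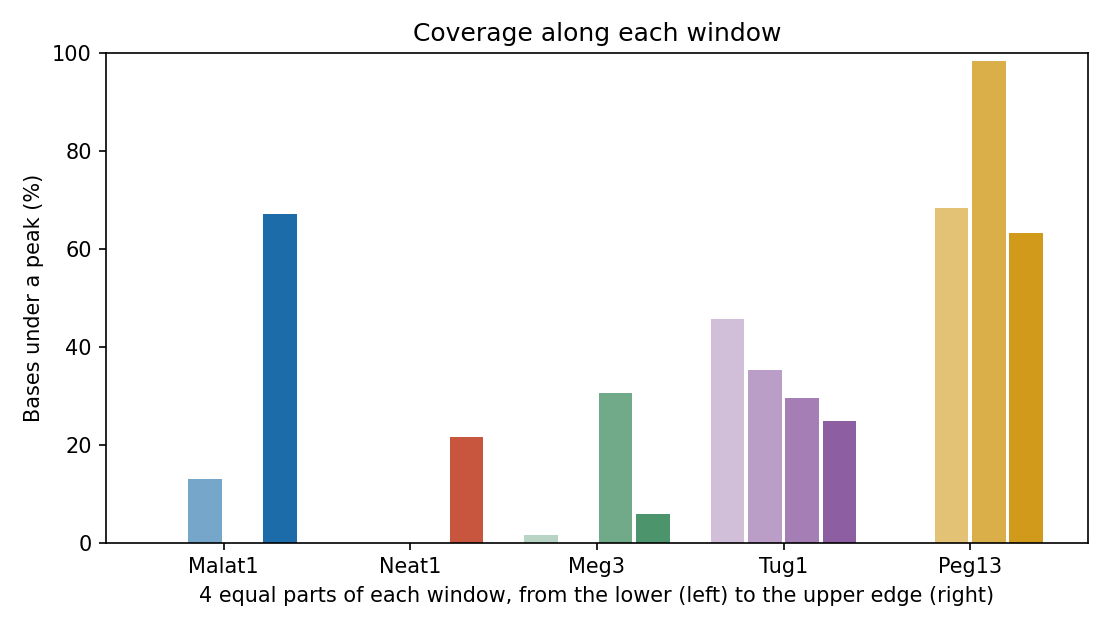
Percent of bases under a peak (y axis) in 4 equal parts of each window, drawn from the lower edge (left bar) to the upper edge (right bar). Neat1 has a bar only in the part next to the upper edge, at 21.7%, and Tug1 has bars in all 4 parts, from 24.8% to 45.6%.

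Meg3 carried the most regions, 12, made of 20 peaks, and they were mostly in a single group. Widths ran from 100 to 475 bases with a median of 237.5 bases, against 225 bases over all regions of the list. None was wider than 500 bases, where 11.5% of all regions were. With only 12 regions this is near that share and is not read as a trait of Meg3. Of the 12 Meg3 regions, 10 formed a group from 110796426 to 110802375, which is 5950 bases or 19.2% of the window and holds 84.7% of the covered bases. Inside this group 42.0% of bases were covered, and neighbouring regions were 25 to 1150 bases apart. The widest region of the RNA, 475 bases from 110798051 to 110798525, lay there, 25 bases from the next.

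The other 2 Meg3 regions stood far from the group. A region of 125 bases, from 110784026 to 110784150, lay 5025 bases from the lower edge, the 5' side of Meg3, and was followed by 12275 bases without a peak, the longest such stretch in the window at 39.6% of it. A region of 325 bases, from 110809576 to 110809900, ended 100 bases before the upper edge after 7200 bases without a peak. Meg3 is spliced and no mm9 annotation was used, so whether the long stretches are introns was not determined. The gene table also places Rtl1, Mir770 and Mir1906-1 over Meg3. Rtl1 is a retrotransposon-derived gene expressed from the other parental copy, and the list has no strand, so which RNA each region belongs to was not determined.

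Among the 5 RNAs, Tug1 had the smallest share of its window in a single peak-free stretch when stretches at the window edges count; between regions alone, Peg13 had no stretch over 125 bases. The Tug1 window held 11 regions made of 26 peaks, with a median width of 450 bases, the covered share was between 24.8% and 45.6% in each of the 4 parts, and the longest stretch without a peak was 1875 bases, 15.0% of the window. The 3 widest regions had 600 bases, from 3546551 to 3547150, then 550 bases, from 3540426 to 3540975, and 525 bases, from 3542551 to 3543075. A further 3 had 475, 475 and 450 bases. RefSeq gives Tug1 on the minus strand, so the part with the highest coverage, 45.6% at the lower edge, is its 3' side.

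The 3 uppermost regions of the Tug1 window came after the stretch of 1875 bases. They had 250, 375 and 150 bases and lay from 3549501 to 3550875. The next gene on that side in the gene table is Morc2a, a protein-coding gene, and which of the genes these regions belong to was not determined. Without them, and with the window ended before that stretch, 8 regions with a median width of 475 bases covered 3450 of 8625 bases, or 40.0%, against 33.8% with them.

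Peg13 was covered almost without a break. Its 3 regions, made of 19 peaks, had 2275, 875 and 300 bases and were separated by only 25 and 125 bases, so that 3450 of the 3600 bases from 72636976 to 72640575 lay under a peak. The widest ran from 72636976 to 72639250 in 12 peaks, and only 6 of the 23446 regions in the list were wider. The middle region, from 72639276 to 72640150, was exceeded by 568 regions of the list. All bases without a peak outside this block were at the window edges, with 1975 bases at the lower and 425 at the upper edge. The window edges are round numbers, so these end stretches also hold whatever part of the window is not Peg13. In the gene table Peg13 overlaps Trappc9, and without strand the regions cannot be assigned to either RNA. Outside the window, the nearest other region was 293950 bases from the lower edge and 282975 bases from the upper edge.

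**Figure D3:**
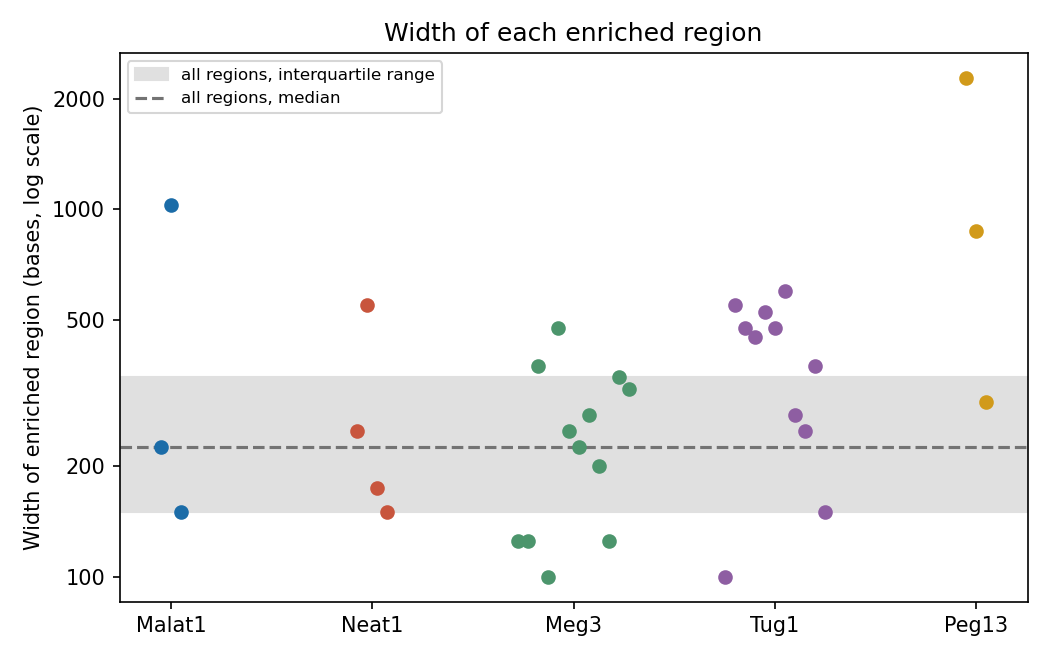
Width in bases, on a log axis, of each of the 33 regions (points, in genome order within an RNA), with the median (dashed line, 225 bases) and interquartile range (grey band, 150 to 350 bases) of all 23446 regions. The Peg13 region of 2275 bases and the Malat1 region of 1025 bases lie above 1000 bases, and no Meg3 region is above 475 bases.

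The 33 regions had a median width of 275 bases (interquartile range 175 to 475), and all regions of the list had 225 bases (150 to 350). Among the 33, 7 (21.2%) were wider than 500 bases, where 11.5% of all regions were. They lay in 4 of the 5 RNAs: 3 in Tug1, 2 in Peg13, and 1 each in Malat1 and Neat1. A width over 1000 bases was reached by 2 (6.06%), against 1.45% of all regions. As the RNAs were picked for their peaks, these shares are a description, and no test was made.

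The regions of these RNAs lay close together. From a region to its closest neighbour the median distance was 200 bases, against 900 bases over the list. Of the 33 regions, 29 (87.9%) had another within 1000 bases, where 51.4% of all regions did, and 9 (27.3%) had another within 100 bases, against 19.6%. The 4 without a neighbour within 1000 bases were the middle region of Malat1, both outlying regions of Meg3 and the Tug1 region from 3544826 to 3545300. Windows chosen for holding several regions favour short distances by construction.

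**Figure D4:**
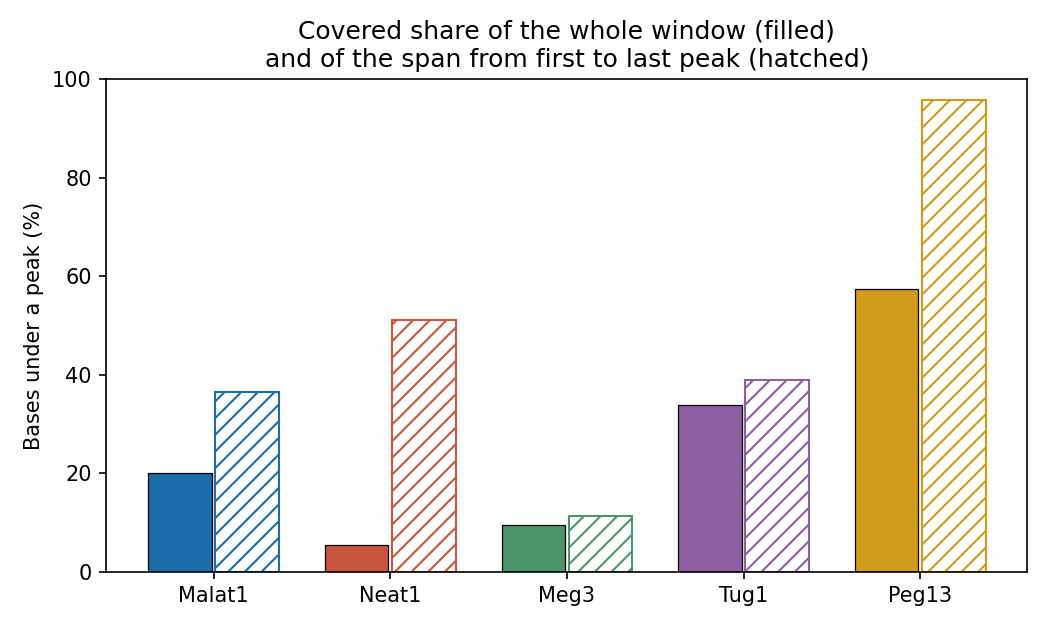
Percent of bases under a peak (y axis) over the whole window (filled bars) and over the span from the first to the last peak (hatched bars) of each RNA. Neat1 has the lowest filled bar, 5.42%, and the second highest hatched bar, 51.1%, and Peg13 has the highest of both, 57.5% and 95.8%.

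To place this coverage within the list, a window of each RNA's length was started at its own first region and at every region of the list. The Peg13 window held 3450 covered bases, the median window of that length 375, and 26 of 23446 windows (0.111%) held as many or more, its own included. For Tug1, 37 windows (0.158%) reached its 4225 covered bases, and for Meg3, 142 (0.606%) reached 3525. For Malat1, 1407 windows (6.00%) reached 1400 covered bases, and for Neat1, 1192 (5.08%) reached 1825. The windows started at the RNAs' own first regions all run past the upper edge of the rule windows. Those of Meg3 and Neat1 take in regions beyond it. Their rule windows held 2950 covered bases for Meg3 and 1125 for Neat1, so the counts for these RNAs are not for the rule windows alone. These windows overlap one another and serve as a scale only.

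Coverage beyond the window edges differed between the RNAs. Within 10 kb on either side there were 0 further regions for Malat1, Tug1 and Peg13. Neat1 had 2 on its upper side, covering 700 bases or 7% of those 10 kb, against 5.42% of its window. The nearest lay 6295 bases from the edge, where the next gene in the table is Frmd8. Meg3 also had 2 on its upper side, covering 575 bases or 5.75%, against 9.52% of its window, the nearest 4100 bases from the edge. On its lower side Meg3 had 0, and the closest region was 507025 bases from the edge. Within 100 kb Peg13 still had 0 on both sides, Tug1 had 0 on the lower and 3 on the upper side, and Malat1 had 6 on the lower and 8 on the upper side, the upper ones including the 4 of Neat1. Neat1 had 6 on each side, the lower ones including those of Malat1, and Meg3 had 0 on the lower and 4 on the upper side.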

How the data were processed

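A single deposited peak list stands for the 3 MeRIP and 3 input libraries. The tools BWA (0.6.2-r126) and SAMtools (0.1.18) and build mm9 are named per the submitters' processing notes. Not given in the sources used here are their roles, the peak caller, its threshold and how libraries were pooled. The authors' file holds chromosome, start and end only. All regions start and end on a grid of 25 bases, and peaks are pieces of at most 200 bases, so touching peaks were joined. Positions are printed counting from 1. Coverage was clipped at the windows. The joining, coverage and stretch steps were checked on simulated data. Python 3.11.15, numpy 2.4.6, scipy 1.17.1 and matplotlib 3.10.9 were used. GRCm38 tables served for names, gene order, the strand of Malat1, Meg3 and Tug1, and the start sequences, never for positions; the direction of Neat1 is general knowledge. All 5 RNAs matched the gene table. No test was run. The RNAs, windows and measures were chosen with earlier results of these data known. All 5 were named, with their widest region, those at the edges and the longest stretches without a peak.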

Additional observations from a re-analysis of the deposited data

How the results depend on the processing

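No paired analysis was possible because the list holds no value per library, so leaving out a replicate could not be run either. Of 81 alternative values for 16 results, 56 stayed close to the reported value: a count or a stretch within 1.5 times it, a covered share within its 95% exact binomial interval over steps of 25 bases. Covered steps come in runs and are not independent, so this interval depends on window length and measures no spread. It served only as a tolerance for sorting the values. Joining peaks up to 100 bases apart could not move a covered share, which counts only bases under a peak. Nor could it move a longest stretch, since each was longer than 100 bases. These unchanged values are among the 56. The region counts were then 3 in Malat1, 3 in Neat1, 10 in Meg3, 10 in Tug1 and 2 in Peg13. With 8 regions over 500 bases, each count stayed within 1.5 times the reported one. Dropping every peak narrower than the median peak, which removes peaks by construction, left 1 region in Malat1, 2 in Neat1, 5 in Meg3 and 6 in Tug1. The covered share was then 14.7% in Malat1, 3.49% in Neat1, 5.06% in Meg3 and 21.5% in Tug1, and the longest stretch in Malat1 was 5311 bases. Over the span from first to last peak the shares were 36.5% (Malat1), 51.1% (Neat1), 11.4% (Meg3), 38.9% (Tug1) and 95.8% (Peg13). With windows 1000 bases longer at each end the share was 29.1% in Tug1 and 43.1% in Peg13, and with windows 1000 bases shorter it was 38.8% and 75.0%. The longest stretch in Peg13 was then 2975 and 975 bases. Counting only stretches between regions gave 1925 bases in Malat1, 775 in Neat1 and 125 in Peg13. Ending the Tug1 window before its 3 uppermost regions, added after seeing the data, gave 40.0%. With 1000 bases as the limit for a wide region, 2 regions passed instead of 7. The order of the RNAs by covered share of the window was the same under every setting except the share of the span.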
